A study of Mus musculus with 6 samples.

Results

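The genes described here belong to families of enzymes that write or erase marks on histones, and of proteins that read them. Not all of their products act mainly on histones, as is said below for Setd3, Hdac6, Hdac10 and Sirt3. The genes were chosen by name: every gene whose platform symbol is Kdm, Setd, Prdm, Brd, Hdac, Kat or Sirt followed by a number, and Brdt. The rule found 64 of the 18543 named genes, measured by 71 probes. Of these, 57 had 1 probe and 7 had 2 probes (Brd1, Brd8, Hdac9, Kdm2b, Prdm2, Setd2 and Setd7). All 64 had a value on all 6 arrays. Among genes of the same families not analysed here were Kdm3b, Setd1b, Setd8, and Prdm6, Prdm9, Prdm10, Prdm11, Prdm12, Prdm14 and Prdm15.

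The study set total RNA of 3 mouse tissues against each other on 6 arrays with 2 colours: epididymis, testis and the stromal vascular fraction (SVF) of adipose tissue. For each pair of tissues there were 2 arrays, the second with exchanged dyes. The 3 pairs close a loop in which each tissue was on 4 arrays. Each tissue was 1 RNA sample, and the labels give no strain, age, treatment or fat depot. The SVF is the mixture of progenitor, endothelial and immune cells left when adipocytes are removed from fat. The 2 arrays of a pair are repeat hybridisations, so their SD covers hybridisation and dye and leaves out differences between animals, and no test between tissues is possible.

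Histones carry acetyl and methyl groups on lysines of their tails. Acetyltransferases (KAT) add acetyl groups, bromodomain proteins (BRD) bind them, and deacetylases (HDAC and sirtuins) remove them. Methyltransferases (the SETD and some PRDM proteins) add methyl groups, and lysine demethylases (KDM) remove them. In testis these enzymes are known for their part in meiosis and in the change from histones to protamines in spermatids. That change needs the hyperacetylation of histones and the testis-specific bromodomain protein Brdt.

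The 13 genes described below as highest in testis share a direction, and promoters are shown for 3 of them, for Hdac6, the only gene highest in epididymis, and for Kdm5d, the Y-linked gene that was lowest in testis. Each line gives the 250 bases before an annotated start, read 5′ to 3′ on the gene's strand, from the RefSeq table of GRCm38.p6. The windows are Kdm4d, chr9:14500483-14500732, minus strand, Hdac4, chr1:92180342-92180591, minus strand, Brdt, chr5:107330944-107331193, plus strand, Hdac6, chrX:7947890-7948139, minus strand, and Kdm5d, chrY:897538-897787, plus strand. Capitals mark CCAAT boxes (CCAAT, or ATTGG on the other strand) and GC boxes (GGGCGG, or CCGCCC on the other strand).
Kdm4d: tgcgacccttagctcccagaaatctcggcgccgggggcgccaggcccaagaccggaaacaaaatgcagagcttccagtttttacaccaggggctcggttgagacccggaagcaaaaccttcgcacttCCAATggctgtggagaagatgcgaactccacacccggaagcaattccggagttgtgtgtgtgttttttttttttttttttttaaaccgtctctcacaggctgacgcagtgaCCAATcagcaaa
Hdac4: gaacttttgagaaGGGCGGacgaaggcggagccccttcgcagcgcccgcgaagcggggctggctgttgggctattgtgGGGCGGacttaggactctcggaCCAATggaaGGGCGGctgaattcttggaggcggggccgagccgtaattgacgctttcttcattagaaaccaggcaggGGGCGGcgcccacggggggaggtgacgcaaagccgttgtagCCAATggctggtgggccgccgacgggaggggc
Brdt: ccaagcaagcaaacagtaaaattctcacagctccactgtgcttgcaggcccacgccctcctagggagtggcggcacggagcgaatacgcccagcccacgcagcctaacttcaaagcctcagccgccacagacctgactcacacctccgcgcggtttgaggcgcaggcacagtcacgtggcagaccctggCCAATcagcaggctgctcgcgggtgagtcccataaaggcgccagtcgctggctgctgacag
Hdac6: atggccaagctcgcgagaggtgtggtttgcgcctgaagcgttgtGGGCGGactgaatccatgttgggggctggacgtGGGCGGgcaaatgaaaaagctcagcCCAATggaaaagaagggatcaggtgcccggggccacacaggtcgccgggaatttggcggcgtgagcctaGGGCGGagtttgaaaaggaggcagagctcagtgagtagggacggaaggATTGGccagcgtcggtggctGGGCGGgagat
Kdm5d: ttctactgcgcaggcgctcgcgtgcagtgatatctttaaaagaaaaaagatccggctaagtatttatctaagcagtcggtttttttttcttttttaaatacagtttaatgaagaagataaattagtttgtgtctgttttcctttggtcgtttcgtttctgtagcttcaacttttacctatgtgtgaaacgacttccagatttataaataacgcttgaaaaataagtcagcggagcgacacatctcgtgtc

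The table held a promoter for 53 of the 64 genes, and 15 of them had more than 1 start. A CCAAT box lay in the 250 bases of 11 of the 12 genes highest in testis that had a promoter (91.7%), in 16 of the 41 other genes of the set (39%) and in 39% of all 14738 genes with a promoter. Among genes with a single window the box was in 6 of 7 genes highest in testis (85.7%), 13 of 31 others (41.9%) and 36% of all 12174. The 2 CCAAT boxes of Kdm4d, the 2 of Hdac4, the single one of Brdt and the 2 of Hdac6 are seen above, and none was found in the window of Kdm5d. The gene highest in testis without the box was Kdm5b. GC boxes lay in 6 of the 12 genes highest in testis and in 33 of the 53 (62.3%), against 50.4% of all genes. Of 4 motifs named for factors of germ cells, cell cycle and cilia, the CRE (TGACGTCA) was found for 0 of 53 genes and for 2.4% of all genes. The MYB hexamer (CAGTTG) was in 4 of 53 (7.55%, against 11.4% of all), Kat2b and Kat7 among them. The E2F motif (TTCCCGC) was in 4 of 53, against 6.09% of all. The X-box core (GTTGCCA) was in 2 of 53, against 4.13% of all. All motifs were searched on both strands, and a match, or none, describes only the letters of these windows.

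Values were taken to be log2 ratios and the ratio to be the first-named tissue over the other, neither of which the labels state, so directions are likely. Once the exchanged array was given the sign of the other, Pearson's r between the 2 arrays over the 64 genes was 0.86 for testis over SVF, 0.71 for epididymis over SVF and 0.88 for epididymis over testis. These are correlations across genes, which are not independent replicates. The median SD of the 64 genes between the 2 arrays was 0.36, 0.35 and 0.31 in that order, against 0.33, 0.37 and 0.35 for all genes. Going round the loop, the 3 mean ratios of a gene should sum to 0. The sum was at most 1 in size for 63 of the 64 genes, and for Kat2a it was -1.31.

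The rule for a difference was a log2 ratio of at least 1 in size (2-fold) on both arrays, with the same sign. Of the 64 genes, 26 (40.6%) met this rule in at least 1 comparison, against 47.1% of all genes, and 38 met it in none. In testis over SVF, 15 genes (23.4%) were higher in testis, against 20.7% of all genes, and 5 (7.81%) were higher in SVF, against 16.0% of all. In epididymis over SVF, 5 (7.81%) were higher in epididymis, against 10.2% of all, and 1 (1.56%) was higher in SVF, against 8.68% of all. In epididymis over testis, 4 (6.25%) were higher in epididymis, against 14.3% of all, and 16 (25.0%) were higher in testis, against 18.0% of all. The shares in favour of testis lay a little above those of all genes and the other 4 lay below them, and neither is read as particular to the set. Median log2 ratios of the set were 0.31 for testis over SVF, 0.12 for epididymis over SVF and -0.15 for epididymis over testis, against 0.00, 0.07 and -0.00 for all genes. The 2 arrays of epididymis over SVF had medians of 0.22 and -0.09, so the sign of that median rests on 1 array.

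**Figure D1:**
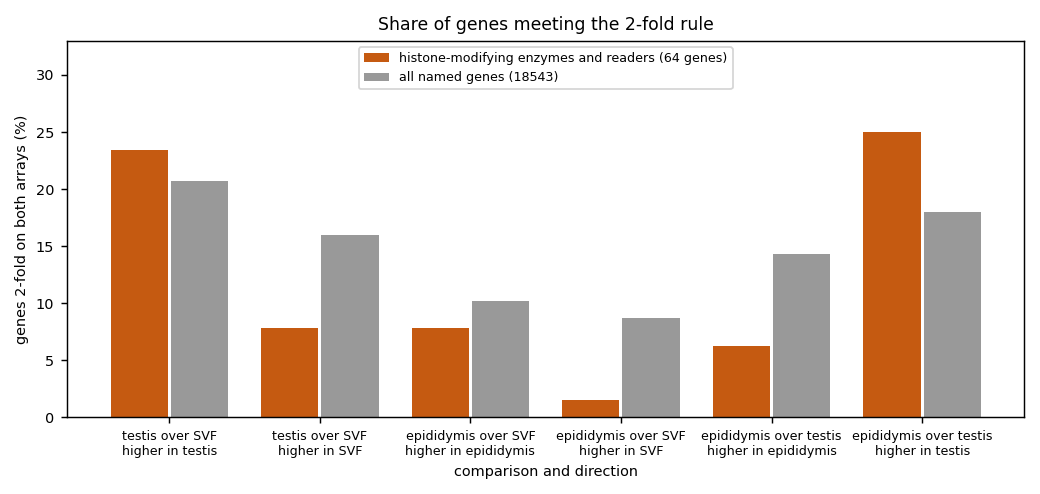
Share of genes (%, vertical axis, from 0) that were at least 2-fold different on both arrays, for each comparison and direction, with the 64 genes of the set in orange and all 18543 named genes in grey. The 2 orange bars for higher in testis stand above their grey bars, and the other 4 stand below.

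**Figure D2:**
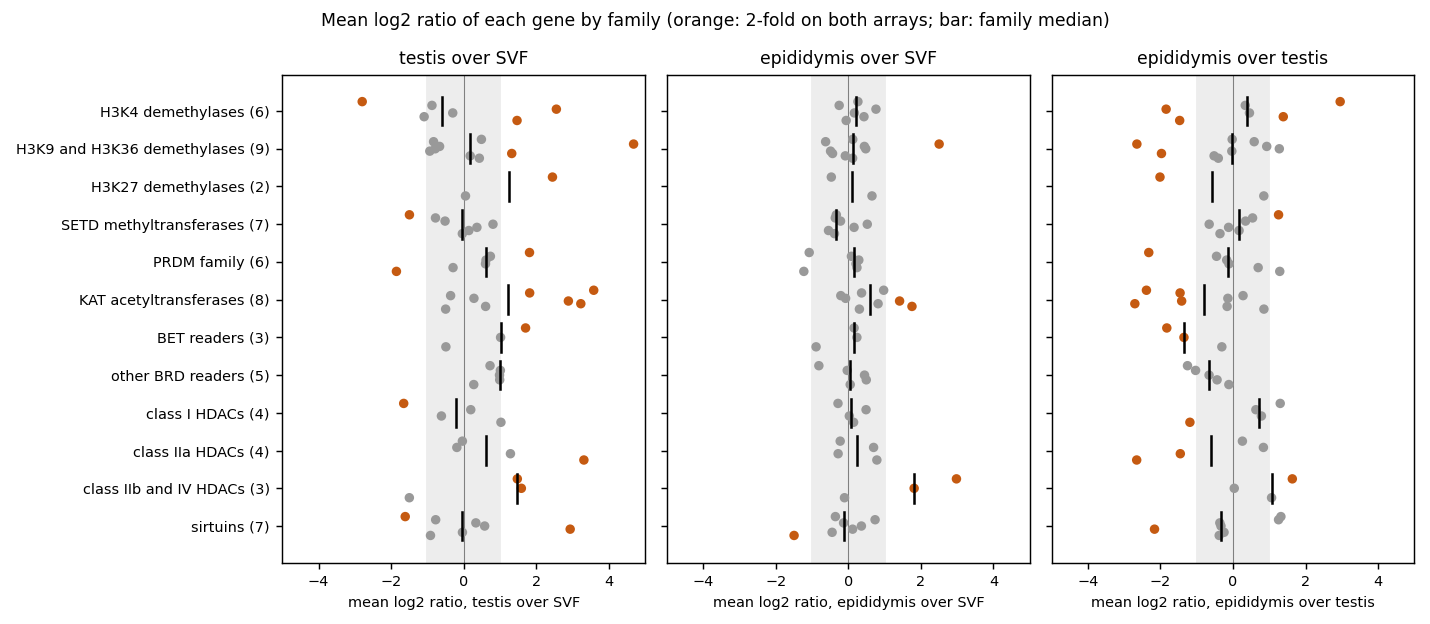
Mean log2 ratio of each of the 64 genes (points), by family and comparison, with the number of genes in brackets. Orange points met the 2-fold rule on both arrays, black bars are family medians and the grey band marks ratios within 1 of 0. Acetyltransferases, with a median of 1.21 in testis over SVF, and the pairs of high and low genes within the H3K4 demethylases are seen.

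Among the demethylases of histone H3 lysine 4 (H3K4), a mark of active promoters, testis exceeded SVF for 2 of 6 and SVF exceeded testis for 1. The shares of all genes were 20.7% and 16.0%. Kdm5b, which removes the trimethyl form, had log2 ratios of testis over SVF of 2.45 and 2.66 (mean 2.55 ± 0.15 SD, n = 2 arrays, 5.87-fold). It stood at -1.99 and -1.70 in epididymis over testis, 3.59-fold higher in testis. Kdm1a, the flavin-dependent demethylase LSD1, had ratios of 1.63 and 1.31 over SVF (1.47 ± 0.23). Its epididymis over testis ratios were -1.25 and -1.69 (-1.47 ± 0.31). Both genes were therefore higher in testis than in either other tissue, and their ratios of epididymis over SVF were 0.36 and 1.16 for Kdm5b and 0.12 and -0.24 for Kdm1a. The LSD1 relative Kdm1b, known in mouse for erasing H3K4 methylation in oocytes, ran the other way. Its ratios of epididymis over testis were 1.10 and 1.67 (1.39 ± 0.41, 2.61-fold higher in epididymis), and those of testis over SVF were -1.43 and -0.76, which missed the rule on 1 array. Kdm5d, the Y-linked member, had the lowest mean ratio of testis over SVF in the set, with -3.61 and -1.98 (-2.80 ± 1.15, 6.96-fold higher in SVF). In epididymis over testis it stood at 3.07 and 2.84 (2.95 ± 0.16, 7.75-fold higher in epididymis), while epididymis and SVF differed little (0.38 and 0.14). Its X-linked relative Kdm5c (-0.03 and -1.72 in testis over SVF) and Kdm5a (-0.35 and -0.26) met the rule nowhere. The 6 family values in epididymis over SVF lay between -0.25 and 0.76, so this family differed 2-fold only where testis was one of the tissues.

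The demethylases of H3K9 and H3K36 held the gene with the largest ratio of the set. Kdm4d, which removes methyl groups from the repressive mark H3K9, had log2 ratios of testis over SVF of 5.82 and 3.55 (4.68 ± 1.60, 25.7-fold). It was also higher in epididymis than in SVF, with 3.35 and 1.65 (2.50 ± 1.20, 5.66-fold), and lower in epididymis than in testis, with -2.25 and -3.05 (-2.65 ± 0.56, 6.28-fold). Its order was thus testis, epididymis and SVF, beyond 2-fold on every array. The 2 arrays of testis over SVF differed by more than 2 on the log2 scale, so the size of its fold is uncertain. Kdm4d has a near-identical copy, Kdm4dl, and cross-hybridisation was not tested. Kdm3a, an H3K9 demethylase needed in mouse spermatids for the protamine and transition protein genes, had ratios of 1.41 and 1.24 in testis over SVF (1.32 ± 0.12, 2.50-fold). Its ratios of epididymis over testis were -1.91 and -2.03 (-1.97 ± 0.09, 3.93-fold higher in testis). The other 7 genes of the family met the rule in no comparison. Among them were the H3K9 and H3K36 trimethyl demethylases Kdm4a, Kdm4b and Kdm4c, with mean ratios of testis over SVF of -0.94, -0.79 and -0.67. Kdm7a stood at -0.83, and Kdm2a, Kdm2b and Kdm8 at 0.43, 0.18 and 0.49. Kdm4b came near the rule in epididymis over testis, with 1.61 and 0.94.

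Of the pair that demethylates H3K27, the mark placed by Polycomb, Kdm6b was higher in testis and Kdm6a was not. Kdm6b had log2 ratios of testis over SVF of 2.52 and 2.37 (2.45 ± 0.11, 5.45-fold) and of epididymis over testis of -1.97 and -2.06 (-2.01 ± 0.07, 4.04-fold higher in testis). Its ratios of epididymis over SVF were -0.08 and -0.86. X-linked Kdm6a had 0.05 on both arrays of testis over SVF, and 0.76 and 0.94 in epididymis over testis.

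Among the 7 SETD methyltransferases, only Setd7, which adds a single methyl group to H3K4 and to other proteins, met the rule. Its log2 ratios of testis over SVF were -1.03 and -1.96 (-1.50 ± 0.66, 2.82-fold higher in SVF) and those of epididymis over testis were 1.29 and 1.22 (1.26 ± 0.05, 2.39-fold higher in epididymis). Its 2 probes disagreed: one stood at -2.13 and -2.37 in testis over SVF, and the other at 0.07 and -1.55, so the call rests on 1 probe. The other 6 had mean ratios of testis over SVF between -0.78 for Setd6 and 0.81 for Setd4. Setd2, which adds the last methyl group of H3K36 and is needed for spermatid development in mouse, had 0.75 and -0.47. The H3K4 methyltransferase Setd1a had 0.08 and -0.16. Setd3, an actin methyltransferase, and Setd5 had mean ratios of 0.36 and -0.52.

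Among the 6 PRDM genes, whose proteins join a SET-like domain to zinc fingers, Prdm8 and Prdm1 went in opposite directions. Prdm8, best known in the developing nervous system, had log2 ratios of testis over SVF of 2.22 and 1.40 (1.81 ± 0.58, 3.51-fold). Its ratios of epididymis over testis were -1.83 and -2.81 (-2.32 ± 0.69, 5.0-fold higher in testis), and those of epididymis over SVF were -1.32 and -0.84. Prdm1, the repressor Blimp1 of plasma cells and primordial germ cells, had ratios of testis over SVF of -2.32 and -1.39 (-1.86 ± 0.66, 3.62-fold higher in SVF). Against epididymis the 2 arrays split around the rule, with -1.88 and -0.58 for epididymis over SVF and 0.76 and 1.82 for epididymis over testis. Prdm16, which drives the brown fat programme, had 0.49 and 0.71 in testis over SVF and 0.11 and 0.31 in epididymis over SVF, with no 2-fold difference for SVF of fat. Prdm2, Prdm4 and Prdm13 had means of 0.61, 0.73 and -0.30 in testis over SVF and met the rule nowhere.

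Of the 8 acetyltransferases, 4 (Kat2b, Kat5, Kat7 and Kat8) were higher in testis than in each of the other tissues, a pattern of 20.3% of the set and 15.6% of all genes. Kat8 (MOF), which acetylates H4K16, had log2 ratios of testis over SVF of 4.61 and 2.56 (3.58 ± 1.45, 12-fold), the second-highest mean of the set. Between epididymis and testis it stood at -1.58 and -3.20 (-2.39 ± 1.14). Kat2b (PCAF), a catalytic subunit of SAGA-type complexes, had 3.71 and 2.75 over SVF (3.23 ± 0.68, 9.37-fold) and -1.36 and -4.06 in epididymis over testis. The arrays of these genes kept direction while their sizes differed widely, most for Kat2b in epididymis over testis (SD 1.91). Kat2b has a listed pseudogene copy, and cross-hybridisation was not tested. Kat5 (TIP60), the catalytic subunit of the NuA4 complex, had ratios of testis over SVF of 3.22 and 2.55 (2.88 ± 0.47, 7.39-fold). It was also higher in epididymis than in SVF, with 1.35 and 1.47 (1.41 ± 0.08, 2.66-fold), and lower in epididymis than in testis, with -1.13 and -1.70. Kat7 (HBO1), which acetylates H3K14 and H4, had ratios of 2.12 and 1.51 over SVF (1.82 ± 0.43) and -1.24 and -1.68 in epididymis over testis. The order testis, epididymis and SVF was met beyond 2-fold throughout by Kat5, as by Kdm4d.

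Kat2a (GCN5), which takes the place of Kat2b in the same complexes, showed another pattern. It had log2 ratios of epididymis over SVF of 2.00 and 1.51 (1.75 ± 0.35, 3.37-fold), of testis over SVF of 0.70 and 0.51, and of epididymis over testis of 0.13 and -0.46. These 3 did not close, as the sum of -1.31 shows, and the least-squares estimate over the loop put epididymis over SVF at 1.31. The paralogues Kat6a and Kat6b (MOZ and MORF) had mean ratios of testis over SVF of 0.28 and -0.36, with -0.64 and 1.20 on the single arrays for Kat6a. Kat14, a subunit of the ATAC complex, had -0.59 and -0.41.

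Among the readers of acetyl-lysine, Brdt, the germ cell member of the BET group, had log2 ratios of testis over SVF of 1.33 and 2.08 (1.70 ± 0.54, 3.26-fold). Its ratios of epididymis over testis were -1.83 and -1.82 (-1.83 ± 0.01, 3.55-fold higher in testis), and in epididymis over SVF the arrays were 1.01 and -0.69, in opposite directions. Although Brdt is the germ cell member, 10 other genes of the set had higher mean ratios of testis over SVF. The broadly expressed Brd3 had -1.35 and -1.36 in epididymis over testis (2.55-fold higher in testis), and 0.77 and 1.26 in testis over SVF. Brd2 had -0.33 and -0.65 in testis over SVF and -0.87 and -0.92 in epididymis over SVF, below 2-fold. None of the 5 other bromodomain genes met the rule, which 47.1% of all genes met in at least 1 comparison. Their mean ratios of testis over SVF ran from 0.28 for Brd1 to 1.01 for Brd8dc (1.12 and 0.90). Brd7 and Brd9, subunits of different SWI/SNF complexes, had 0.87 and 1.11 for Brd7 and 1.20 and 0.25 for Brd9. Brd8, a subunit of the TIP60 complex, had 2 probes that differed, one with 2.12 and 1.19 and the other with 0.18 and 0.45.

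Class I deacetylases, among them catalytic subunits of nuclear corepressors, split between tissues. Hdac1 had log2 ratios of epididymis over testis of -1.22 and -1.15 (-1.19 ± 0.05, 2.28-fold higher in testis) and of testis over SVF of 1.42 and 0.63. Its close relative Hdac2 had 0.88 and 0.68 in epididymis over testis and -0.24 and -0.99 in testis over SVF. Hdac1 also has a listed pseudogene copy, and cross-hybridisation was not tested. X-linked Hdac8 had -1.56 and -1.75 in testis over SVF (-1.66 ± 0.14, 3.15-fold higher in SVF), with 1.61 and 0.99 in epididymis over testis. Hdac3, the NCoR enzyme, had means of 0.19, 0.49 and 0.63 in the 3 comparisons.

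Class IIa deacetylases, which shuttle between nucleus and cytoplasm and bind MEF2 factors, held Hdac4, whose large ratios were close to each other on the 2 arrays of a pair. Hdac4 had log2 ratios of testis over SVF of 3.10 and 3.52 (3.31 ± 0.30, 9.93-fold) and of epididymis over testis of -2.63 and -2.68 (-2.66 ± 0.04, 6.30-fold higher in testis). In epididymis over SVF it stood at 0.58 and 0.99. Hdac4 was among the 8 genes that passed 4-fold on both arrays in testis over SVF, with Kat2b, Kat5, Kat8, Kdm4d, Kdm5b, Kdm6b and Sirt3. Of these, Hdac4 and Kdm4d also passed 4-fold on both arrays in epididymis over testis, and Kdm6b, with -1.97 and -2.06, came near it. The 4-fold shares of all genes were not counted, so passing 4-fold is not read as particular to the set. Hdac5 had -1.51 and -1.40 in epididymis over testis (-1.45 ± 0.08, 2.74-fold higher in testis) and 1.65 and 0.93 in testis over SVF. Hdac7 and Hdac9 met the rule nowhere, with means of -0.19 and -0.04 in testis over SVF and 0.84 and 0.26 in epididymis over testis.

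Hdac6, the X-linked class IIb enzyme that deacetylates tubulin in the cytoplasm, was highest in epididymis. It had log2 ratios of epididymis over SVF of 3.21 and 2.75 (2.98 ± 0.33, 7.88-fold), the highest of the set in that comparison. In epididymis over testis it stood at 1.82 and 1.45 (1.63 ± 0.26, 3.10-fold), and in testis over SVF at 1.52 and 1.43 (1.48 ± 0.07, 2.78-fold). All 6 arrays thus gave the order epididymis, testis and SVF. Hdac11, the class IV enzyme, shared the low SVF level and not the difference between the other tissues. Its ratios were 2.12 and 1.50 in epididymis over SVF (1.81 ± 0.44), 1.63 and 1.54 in testis over SVF (1.59 ± 0.06), and -0.09 and 0.16 in epididymis over testis. Hdac10, a polyamine deacetylase, ran the other way in testis over SVF with -0.89 and -2.11, missing the rule on 1 array.

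Of the 7 sirtuins, the NAD-dependent deacylases, 3 met the rule in at least 1 comparison, as did 47.1% of all genes. Sirt3, the main deacetylase of mitochondria, had log2 ratios of testis over SVF of 3.27 and 2.60 (2.93 ± 0.47, 7.64-fold) and of epididymis over testis of -1.75 and -2.58 (-2.17 ± 0.58, 4.48-fold higher in testis). The other mitochondrial sirtuins, Sirt4 and Sirt5, had means of 0.58 and 0.33 in testis over SVF. Nuclear Sirt1 was the only gene of the set to meet the rule for higher in SVF than in epididymis, with -1.61 and -1.39 (-1.50 ± 0.16, 2.82-fold). It was also below SVF in testis on both arrays, with -0.81 and -1.02, short of the rule on 1. Sirt7, a nucleolar H3K18 deacetylase, had -1.03 and -2.20 in testis over SVF (-1.61 ± 0.83, 3.06-fold higher in SVF). The nuclear Sirt6 had -0.06 and -1.49 there and 1.67 and 0.84 in epididymis over testis, and cytoplasmic Sirt2 had means between -0.45 and -0.04 in the 3 comparisons.

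**Figure D3:**
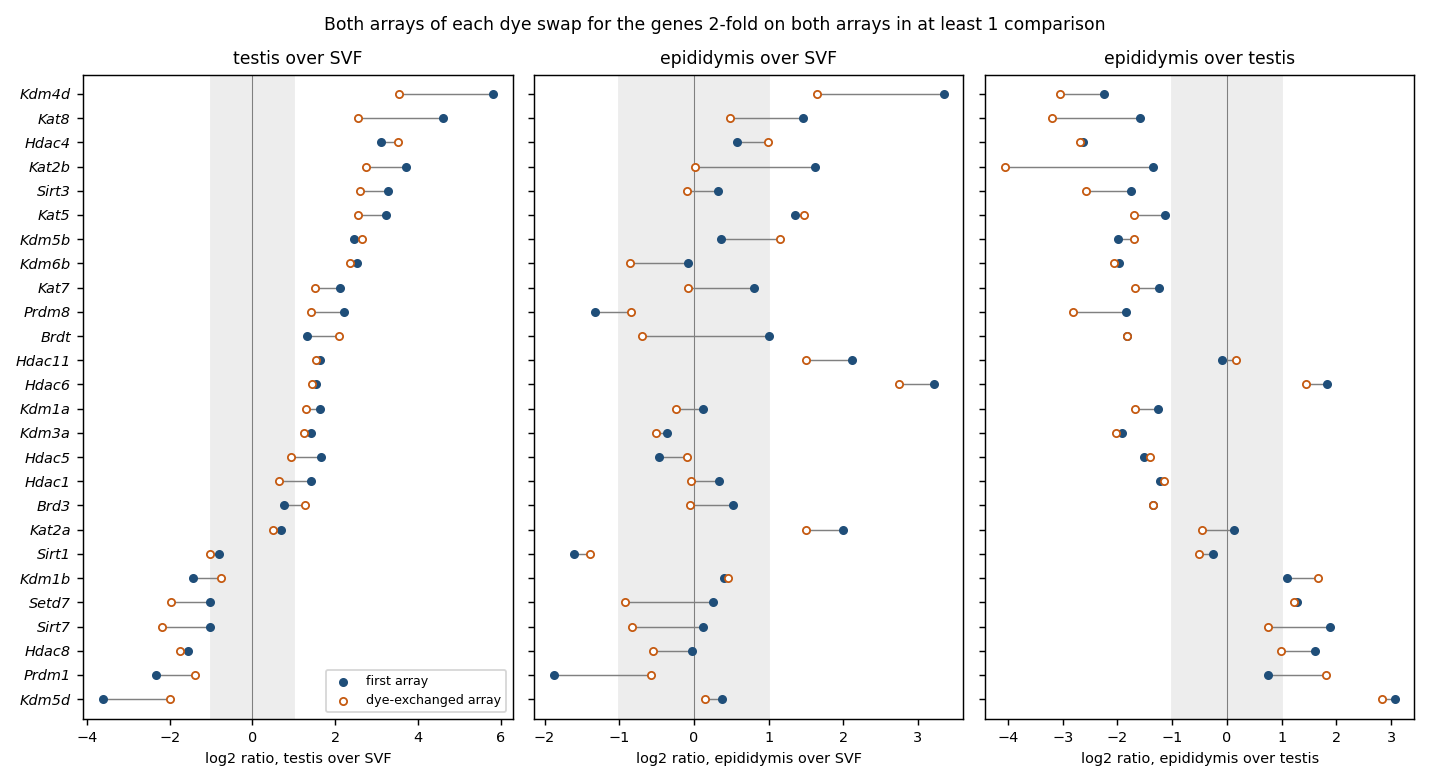
Log2 ratios on both arrays of each dye swap (filled, first array; open, dye-exchanged array) for the 26 genes that met the 2-fold rule in at least 1 comparison, ordered by their mean ratio of testis over SVF. The grey band marks ratios within 1 of 0. Kdm4d is at the top with 5.82 and 3.55 and Kdm5d at the bottom with -3.61 and -1.98.

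By the rule against both other tissues, 13 of the 64 genes (20.3%) were highest in testis, against 15.6% of all genes. They were Brdt, Hdac4, Kat2b, Kat5, Kat7, Kat8, Kdm1a, Kdm3a, Kdm4d, Kdm5b, Kdm6b, Prdm8 and Sirt3. One gene, Hdac6 (1.56%), was highest in epididymis, against 4.34% of all, and 0 were highest in SVF, against 6.95% of all. Kdm5d and Setd7 (3.12%) were lowest in testis, against 7.97% of all. Hdac11, Hdac6, Kat5 and Kdm4d (6.25%) were lowest in SVF, against 4.99% of all, and 0 were lowest in epididymis, against 0.928% of all. In all, 17 genes met the rule in at least 2 comparisons, and Hdac6, Kat5 and Kdm4d in all 3. The shares of all genes that did so were not counted, so neither is read as particular to the set. The comparisons share RNA samples, so these counts are not independent. A least-squares fit over the loop gives each gene 1 level per tissue, relative to its own mean over the 3 tissues. This level was highest in epididymis for 15 genes, in testis for 32 and in SVF for 17 of the 64, against 27.9%, 40.2% and 31.9% of all genes. For Kdm4d the fitted levels were -0.05 in epididymis, 2.44 in testis and -2.39 in SVF. For Hdac6 they were 1.54, -0.05 and -1.49 in the same order, and for Kdm5d 1.07, -1.92 and 0.85.

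**Figure D4:**
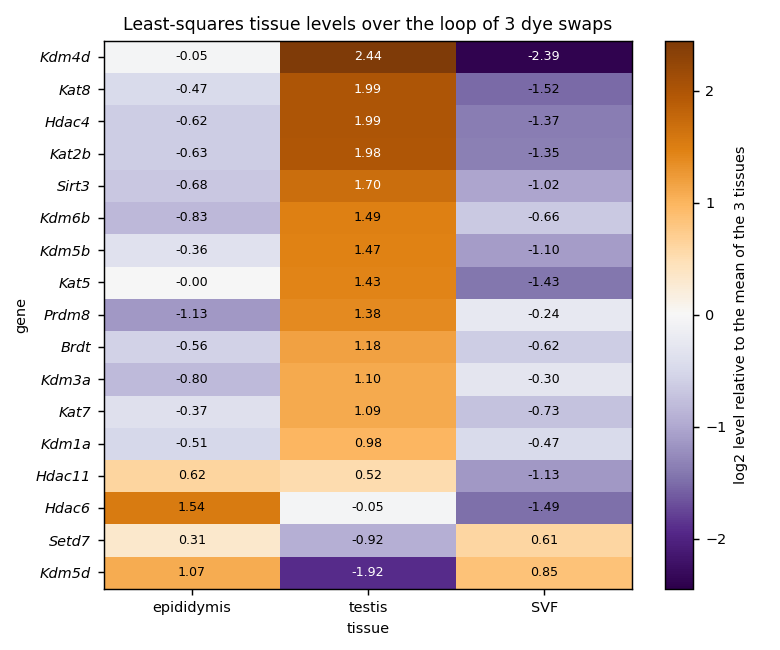
Least-squares log2 levels in epididymis, testis and SVF (columns) for the 17 genes that met the rule in at least 2 comparisons, each relative to its own mean over the 3 tissues (orange, above the mean; violet, below). The 13 genes highest in testis are the upper rows, and Hdac6 and Kdm5d depart from them with levels of 1.54 in epididymis and -1.92 in testis.

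A limma fit across all 18543 genes, which measures hybridisation error only and says nothing of other animals, counted more genes at an adjusted p under 0.05. It counted 30 of the 64 genes (46.9%) as higher in testis than in SVF, against 34.2% of all, and 21 (32.8%) as higher in SVF, against 30.7% of all. In epididymis over SVF it counted 18 (28.1%) as higher in epididymis, against 29.0% of all, and 11 (17.2%) as higher in SVF, against 20.1% of all. In epididymis over testis it counted 20 (31.2%) as higher in epididymis, against 30.6% of all, and 28 (43.8%) as higher in testis, against 31.8% of all. All calls of the 2-fold rule were among them.

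In the set, 5 genes lie on the sex chromosomes, 4 on X and Kdm5d on Y. The 4 X-linked genes did not share a pattern, with mean log2 ratios of testis over SVF of 1.48 for Hdac6, 0.05 for Kdm6a, -0.88 for Kdm5c and -1.66 for Hdac8. All 617 X-linked named genes had a median of -0.29, 102 of them higher in testis and 142 in SVF. The 59 autosomal genes of the set had a median of 0.36, 14 of them (23.7%) higher in testis and 3 (5.08%) in SVF, against 20.7% and 16.0% of all genes. Of the 13 named Y-linked genes, Kdm5d was the only one to meet the 2-fold rule for higher in epididymis than in testis, and 7 met it for higher in testis. Against SVF, 6 Y-linked genes were higher in testis, among them the zinc finger gene Zfy1 (2.95 ± 0.25) and the ubiquitin-activating gene Uba1y (3.44 ± 0.40). Kdm5d and Orly (-3.20 ± 0.44) were higher in SVF. The broadly expressed Eif2s3y (-0.06 and -0.81) and Uty (1.22 and 0.21), the Y-linked relative of Kdm6a, met the rule in no comparison. The 3 mean ratios of Uty did not close, with a loop sum of 1.92. Xist, the RNA of X inactivation, had means of -0.18, 0.09 and -0.76 in the 3 comparisons and met the rule in none. Its loop sum was also over 1 in size, so these means did not close. Kdm5c and Kdm5d are closely related in sequence, and cross-hybridisation was not tested.

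**Figure D5:**
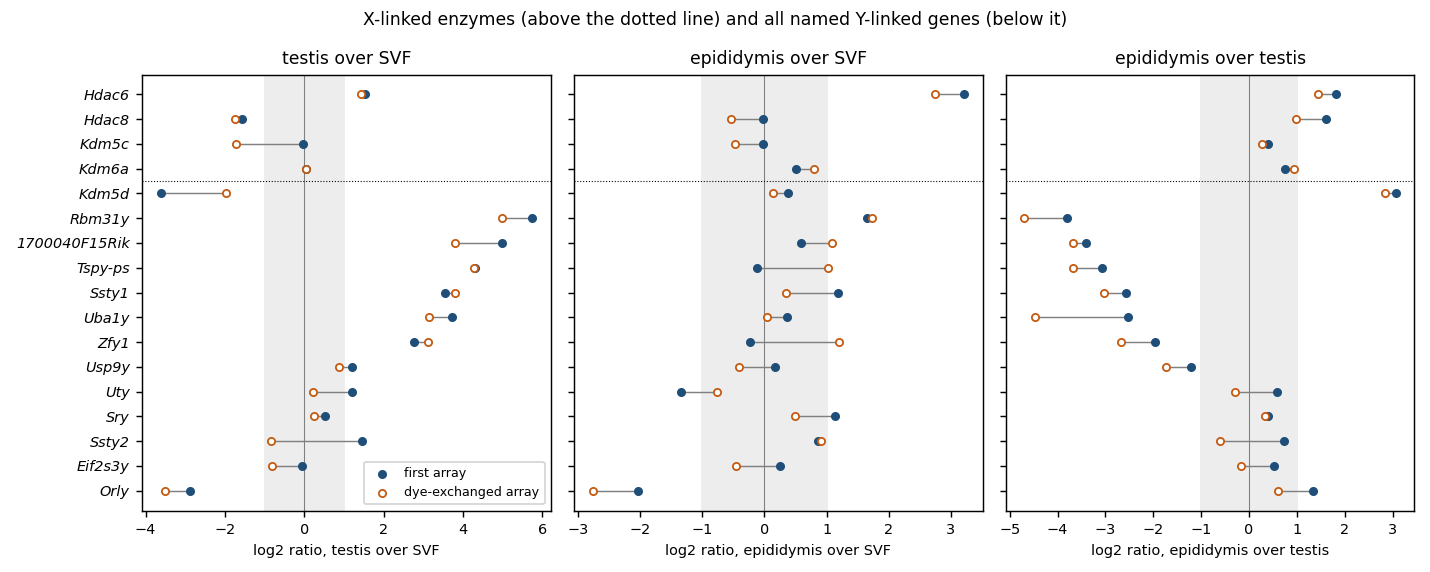
Log2 ratios on both arrays (filled, first array; open, dye-exchanged array) of the 4 X-linked genes of the set, above the dotted line, and of the 13 named Y-linked genes, below it. Kdm5d is to the left in testis over SVF (-3.61 and -1.98) and to the right in epididymis over testis (3.07 and 2.84), where 7 other Y-linked genes are to the left.

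Partners and relatives of these genes were taken from 8 lists of histone methyltransferases, Polycomb and COMPASS subunits, demethylases, acetyltransferases, readers and corepressor subunits, with 162 of 176 genes measured. In testis over SVF, 39 (24.1%) were higher in testis, against 20.7% of all genes, and 16 (9.88%) had more signal in SVF, against 16.0% of all. In epididymis over SVF, 6 (3.70%) were higher in epididymis, against 10.2% of all, and 3 (1.85%) were higher in SVF, against 8.68% of all. In epididymis over testis, 14 (8.64%) were higher in epididymis, against 14.3% of all, and 34 (21.0%) were higher in testis, against 18.0% of all. The shares higher in testis were thus near those of all genes. The largest ratio was that of the chromodomain gene Cdyl, known for a testis form, with 6.20 and 4.93 in testis over SVF (47.4-fold). The Polycomb ring protein Bmi1 had 4.27 and 3.72 (16.0-fold). Ash2l, a core COMPASS subunit that works with H3K4 methyltransferases, had 3.12 and 2.37. The H3K36 methyltransferase Nsd2 had 2.36 and 2.54, and the arginine methyltransferase Prmt7 had 3.03 and 2.49. Uhrf1, the reader that keeps DNA methylation through replication, had 3.09 and 2.37, and Gatad2b, a NuRD subunit that works with Hdac1 and Hdac2, had 2.77 and 2.59. Other subunits went against testis. Phf19, an accessory subunit of PRC2, had -2.13 and -2.22 in testis over SVF and 4.48 and 4.76 in epididymis over testis (24.6-fold higher in epididymis). Zmynd11, a reader of H3K36 methylation, had -2.34 and -2.91 in testis over SVF. Sp100, a nuclear body protein induced by interferon, had -3.39 and -3.38 in testis over SVF and -3.12 and -3.06 in epididymis over SVF.

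These are ratios of whole tissues, in which fewer cells of a type and less RNA per cell cannot be told apart. Markers of several cell types also differed between the tissues. All 12 measured late spermatid markers were higher in testis than in SVF, with mean log2 ratios from 2.73 to 5.77, and all 12 were higher in testis than in epididymis. Of the 12, 10 were also higher in epididymis than in SVF, where the list ran from 1.05 to 2.76. In that comparison Hdac6 (2.98), Kdm4d (2.50), Hdac11 (1.81), Kat2a (1.75) and Kat5 (1.41) were higher in epididymis. Of these genes, only Kdm4d (-2.65) and Kat5 (-1.42) met the rule for lower in epididymis than in testis, as the markers did. Hdac6 was higher in epididymis than in testis (1.63), and Hdac11 (0.03) and Kat2a (-0.16) met the rule in neither direction there. Of 12 meiosis markers, 9 were higher in testis than in SVF, 5 higher in epididymis than in SVF and 9 higher in testis than in epididymis. Of 10 spermatogonia markers 2 were higher in testis than in SVF, of 9 Sertoli markers 5, and of 5 Leydig markers 5. All 13 duct markers were higher in epididymis than in SVF (2.40 to 7.29) and than in testis (2.41 to 7.42), as was Hdac6. The tissue labels are thus borne by their markers. All 7 leukocyte markers were higher in SVF than in testis (-5.54 to -1.21) and than in epididymis (-4.74 to -1.81). Of the set, Hdac8, Kdm5d, Prdm1, Setd7 and Sirt7 met the rule with SVF above testis, and Sirt1 met it with SVF above epididymis. Against testis, 6 of 7 stromal, 3 of 5 endothelial and 3 of 5 adipocyte markers were higher in SVF, and 1 adipocyte marker, the hormone-sensitive lipase gene Lipe, was higher in testis (2.01). In epididymis over testis, 6 of 7 stromal and 3 of 7 leukocyte markers were higher in epididymis. So were 1 of 5 endothelial and 2 of 5 adipocyte markers, while Lipe was higher in testis. The part of all these markers in the differences of the 64 genes was not tested.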

How the data were processed

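The authors deposited 1 log ratio for each of 25344 probes on each of 6 arrays. Per the labels, RNA was extracted with Qiagen and labelled with Ambion kits, with Cy3 and Cy5 as the dyes. For background correction, normalization, logarithm base and ratio direction the entry is: not given in the sources used here. By convention the authors' values were taken as log2, with Cy5 as the numerator. Deposited column medians were 0.005 and 0.044 (testis and SVF), 0.114 and 0.010 (epididymis and SVF), and 0.048 and 0.007 (epididymis and testis). As deposited, the 2 arrays of a pair correlated across probes with Pearson's r of -0.86, -0.64 and -0.77 in that order, so the exchanged array's sign was turned. Scale, centring and direction stay unstated, and signal above background was not analysed here. The number of arrays limits the precision.

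Probe names came from the platform annotation: 20456 probes matched the GRCm38.p6 gene table by gene ID, 220 matched by symbol, and for 246 the annotated name stood. No name was given to 160 with non-mouse symbols, to 30 with several genes or to 4232 without an annotation row. This left 20922 probes for 18543 genes, each the mean over its probes. Values are means ± SD over 2 arrays. With 1 RNA sample per tissue there was no test between tissues. The 2-fold rule was a log2 ratio of at least 1 on both arrays. A loop fit and limma 3.58.1 (R 4.3.3, dye term, Benjamini-Hochberg adjustment over all genes) were alternatives, and the rest used Python 3.11.15. The rule and the fit were tested on simulated data. The genes, lists and motifs were chosen with earlier results of these data known. All genes meeting the rule are named, with the highest and lowest of each family and up to 4 genes per context list.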

Additional observations from a re-analysis of the deposited data

How the results depend on the processing

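In the order higher in testis and higher in SVF, then higher in epididymis and higher in SVF, then higher in epididymis and higher in testis, the 2-fold rule gave 15 and 5, 5 and 1, and 4 and 16 genes. Asking for 4-fold on both arrays left 8 and 0, 1 and 0, and 1 and 2, with no share of all genes counted at 4-fold. The limma fit gave 30 and 21, 18 and 11, and 20 and 28. From single arrays the counts were 20 on each and 7 to 11, then 6 to 9 and 2 to 3, then 6 to 10 and 17 to 18. Leaving out genes whose arrays differed by over 2 gave 13 and 5, 5 and 1, and 4 and 15. The calls higher in SVF over testis came to 11 without the first array, and those higher in epididymis over testis to 10 without the second. Without the first array, 2 genes were higher in SVF than in epididymis, and without the second 3 were, while 9 were higher in epididymis. Reading the values as natural logarithms gave 9 genes higher in SVF than in testis, 3 higher in SVF than in epididymis and 13 higher in epididymis than in testis. The loop estimate gave 2 genes higher in SVF than in epididymis and 10 higher in epididymis than in testis, and 2-fold on the mean alone gave 3 and 10.

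All 20, 6 and 20 calls were kept under median centring, the loop estimate and limma. At 4-fold on both arrays 2 genes were highest in testis, 0 highest in epididymis, 0 lowest in testis and 0 lowest in SVF, against 13, 1, 2 and 4 at 2-fold. The loop estimate put 1 gene highest in SVF and 7 lowest in testis. Leaving out Kat2a, whose loop sum was over 1, was chosen after seeing the data and changed no count of highest or lowest genes. Mean ratios of single genes moved by more than their SD in 45 of their alternatives for testis over SVF, 21 for epididymis over SVF and 48 for epididymis over testis, and by less in 275, 299 and 272. With 2 arrays, leaving out an array cannot move a mean by more than its SD. Any alternative of that kind therefore moved by less by construction, and these counts are no measure of stability. No called gene changed direction. Signal over background was not analysed here, so ratios of weakly expressed genes may be too small or too large. No paired analysis was possible because no comparison has replicate RNA samples. The causes of these shifts were not tested, beyond what each rule's own construction sets.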

Other observations

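Genes of cell division, on a list of 9 measured genes, were higher in testis for 4 in testis over SVF and for 5 in epididymis over testis, where 20.7% and 18.0% of all genes were higher in testis. The spindle checkpoint gene Bub1 had log2 ratios of testis over SVF of 4.49 and 3.55 (16.2-fold), and the topoisomerase gene Top2a of 3.44 and 2.73. The mitotic kinase gene Aurka had 2.28 and 2.75. Mki67, the proliferation antigen, had -0.24 and -0.52 in testis over SVF. It was the only one to meet the rule for higher in SVF than in epididymis, with -2.04 and -1.83. The Polycomb methyltransferase Ezh2 had 1.64 and 1.58 in testis over SVF, -1.06 and -1.01 in epididymis over SVF and -2.21 and -2.35 in epididymis over testis, so its order on all 6 arrays was testis, SVF and epididymis. The tripartite motif reader Trim66 was 5.50-fold higher in epididymis than in SVF (2.09 and 2.83) and 8.84-fold higher in epididymis than in testis (2.63 and 3.66).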
